A study of Homo sapiens with 24 samples.

Results

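VCAM1 and 8 other cell adhesion molecules were described in human pluripotent stem cell-derived sensory neuron cultures exposed to cytokines. The genes were VCAM1, ICAM1, ALCAM, MCAM, NCAM1, L1CAM, CHL1, CNTN1 and CADM1, chosen by symbol with earlier results of these data known. They made up 9 of the 36468 entries in the count table, with 1 entry each. The cultures came from 1 wild-type embryonic stem cell line, H9WAO9 in the labels (also written H9WA09), which was taken through vagal neural crest spheroids to sensory neurons and then matured. Each of 6 differentiation batches gave 1 polyA RNA library per treatment, so that 24 libraries formed 4 groups of 6. The vehicle group received 0.1% BSA in PBS. The TGF-β group received TGF-β at 2 ng/ml for 5 days. The IL-4 + IL-13 group received IL-4 at 10 ng/ml together with IL-13 at 3 ng/ml, also for 5 days. The IL-6 group is named in the labels without a dose or a duration. All libraries are of whole cultures, in which flow cytometry in the study found neurons to be the smaller share of cells, so a gene's level pools neurons with other cells. In such bulk samples, fewer cells of a type and less RNA per cell cannot be told apart.

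The 9 genes encode surface proteins of the immunoglobulin superfamily, whose outer domains bind partners on other cells. VCAM1 and ICAM1 hold leukocytes through integrins: VCAM1 binds integrin α4β1 and ICAM1 binds the β2 integrins, and both genes are classic targets of inflammatory signaling in endothelium. VCAM1 on endothelium is also known to rise under IL-4 and IL-13, where it favors the capture of eosinophils. The neural members guide axons, bundle neurites and shape contacts between neurons and glia.

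Depth was similar across libraries, with 33342682 to 39817784 counts per library (median 35775126). Raw counts of VCAM1 ran from 17 to 682, and the lowest raw count of any other member was 629. Neuron markers were present in every library, and their summed level ran from 47958 to 268496 normalized counts (counts divided by a library size factor). Mesenchymal markers, led by collagen genes, were also high in every library (120408 to 552100). Leukocyte markers summed to less (482 to 2480). Among them PTPRC had 159 to 1320 raw counts, CD68 136 to 1413 and CSF1R 29 to 506, levels like that of VCAM1 or above it. CD14 and LYZ had at most 15 and 13 raw counts, and AIF1, a macrophage marker, had no count in any library. Libraries of one batch deviated together, but the vehicle library of batch 2 resembled its own batch least (mean correlation 0.06, against 0.42 with batch 4), and the vehicle library of batch 4 resembled batch 2 more (0.42) than its own batch (0.17). The libraries of TGF-β and of IL-4 + IL-13 in batch 4 resembled batch 3 most. Labels were kept as given, and results are given below with and without the vehicle libraries of batches 2 and 4.

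The 250 bases before the RefSeq start of VCAM1 (GRCh38.p14, chr1:100719492-100719741, + strand) and of ICAM1 (chr19:10270870-10271119, + strand) are shown because these are the members best known as ligands of leukocyte integrins, and their responses to treatment are set side by side. Capitals mark TATAAA on either strand, matches to the NF-κB consensus GGGRNNYYCC and matches to TTCNNNGAA, a STAT-type motif. R stands for A or G, Y for C or T and N for any base. Stretches that differ from a consensus by 1 base are not marked, among them gggtttcccc in VCAM1 and tggaaattcc in ICAM1.
VCAM1: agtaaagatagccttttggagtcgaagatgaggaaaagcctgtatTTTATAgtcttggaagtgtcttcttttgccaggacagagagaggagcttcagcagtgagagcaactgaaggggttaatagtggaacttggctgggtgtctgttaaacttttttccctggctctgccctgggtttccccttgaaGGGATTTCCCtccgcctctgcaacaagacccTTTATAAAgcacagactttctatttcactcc
ICAM1: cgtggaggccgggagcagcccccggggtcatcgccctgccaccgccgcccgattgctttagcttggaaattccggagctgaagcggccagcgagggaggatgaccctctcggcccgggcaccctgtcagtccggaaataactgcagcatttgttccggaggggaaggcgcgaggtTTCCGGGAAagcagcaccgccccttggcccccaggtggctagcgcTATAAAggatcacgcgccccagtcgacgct
Of 6 motifs searched on both strands in 300-base windows (250 before to 50 after the start), VCAM1 held TATAAA from 29 bases before the start, overlapping a match on the other strand, and the NF-κB consensus match GGGATTTCCC 62 bases before it. It also held 1 more TATAAA match on the other strand 205 bases before the start, and CAGACA, a SMAD-type motif, on the other strand 110 bases before it. ICAM1 held TATAAA 30 bases before the start and TTCCGGGAA, a match to TTCNNNGAA, 75 bases before it. Over all 35116 RefSeq windows of this length, TATAAA was found in 11.5%, TTCNNNGAA in 7.66%, TTC and GAA with 4 bases between them in 6.44%, CAGACA in 16.9%, the AP-1-type TGANTCA in 7.71% and the NF-κB consensus in 11.3%. The VCAM1 window was poor in CpG (5 CpG, 48.3% G and C) and the ICAM1 window rich (24 CpG, 64.7%), beside medians of 14 CpG and 58.7% over all windows. Of the 9 genes 7 had a RefSeq window. In the windows of the other 5 of them, TATAAA was not among the letters. These matches are descriptions of sequence and not measured binding. A window without a match can still hold a site that departs from the consensus searched.

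VCAM1 rose under IL-4 + IL-13 by 3.82-fold over vehicle, and it was higher in the treated library than in the vehicle library of the same batch in 6 of 6 batches. The gene lies on chromosome 1 (chr1:100719742-100739045, GRCh38.p14) and overlaps no other annotated gene. In vehicle, VCAM1 had 116, 132, 105, 85.0, 70.0 and 14.8 normalized counts in batches 1 to 6. With IL-4 + IL-13 the values were 140, 197, 597, 629, 315 and 129. The treated libraries of batches 1 to 5 lay above every vehicle library, batches 1 and 2 by little, and batch 6 started from the lowest vehicle value of all. The groups overlapped in a narrow zone, since the highest vehicle library (132) exceeded the lowest treated one (129).

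The log2 fold change of VCAM1 was 1.93 (SE 0.345, 95% interval 1.21 to 2.66, n = 6 batches), with an adjusted p of 0.00855 in edgeR's quasi-likelihood test with Benjamini-Hochberg adjustment over 29377 entries. DESeq2 gave a log2 fold change of 1.94 and an adjusted p of 3.7e-06. With the vehicle libraries of batches 2 and 4 left out, the change was 1.94 with an edgeR adjusted p of 0.0255. The call did not hold without batch 3 (1.79, adjusted p 0.0726), batch 5 (1.87, adjusted p 0.0507) or batch 6 (1.77, adjusted p 0.0754), or when batch was left out of the model (1.94, adjusted p 0.54). In a fit of the 2 groups alone the change was 1.91 with an adjusted p of 0.271. By p value VCAM1 ranked 78 among all entries tested, and 33 by size among the 109 that rose.

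The rise differed in size from batch to batch. Treated over vehicle, VCAM1 was 1.20-fold in batch 1 and 1.48-fold in batch 2. It was 5.64-fold, 7.32-fold, 4.45-fold and 8.26-fold in batches 3 to 6. In the same libraries CISH, a feedback inhibitor induced by STAT signaling, was higher with IL-4 + IL-13 by 4.56, 2.78, 5.09, 3.85, 4.80 and 4.33 on the log2 scale in batches 1 to 6. VCAM1 moved least in batches 1 and 2, while CISH differed least in batch 2. All comparisons with vehicle within batches 2 and 4, here and below, use vehicle libraries that each resembled the other batch more than their own. IL13RA2, a decoy receptor for IL-13, differed least in batch 1, by 0.57, and most in batch 4, by 2.00. Batch 1 also had the lowest summed neuron markers, with a mean of 62880 normalized counts against 108604 to 241865 in the other batches, and the part of these levels in the VCAM1 result was not tested.

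**Figure D1:**
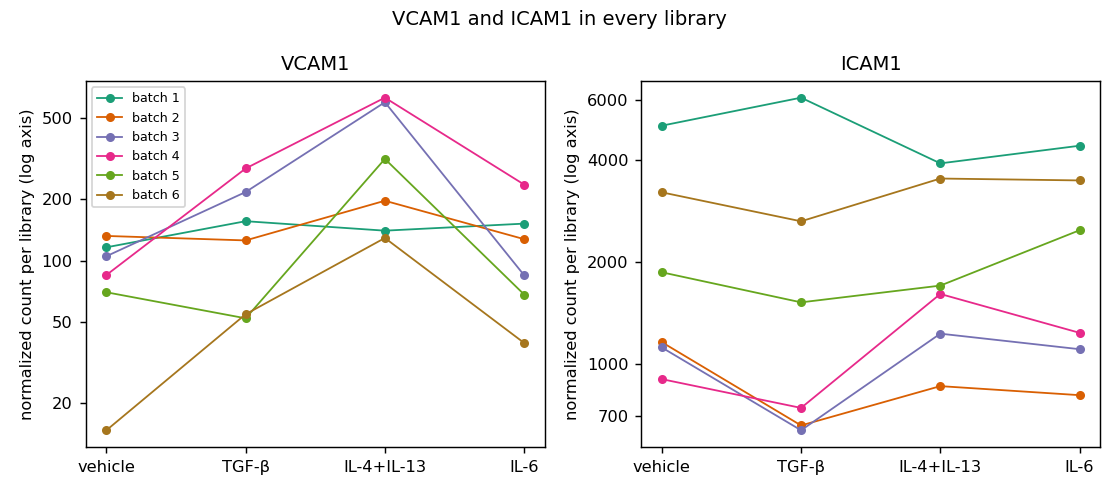
Normalized counts of VCAM1 (left) and ICAM1 (right) in each of the 24 libraries on log axes, by treatment, with 1 line per differentiation batch joining its 4 libraries. VCAM1 peaked with IL-4 + IL-13 in batches 2 to 6, up to 629 in batch 4, while ICAM1 lines kept batch 1 on top in every treatment (3904 to 6100).

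TGF-β left VCAM1 between the other groups. The 6 TGF-β libraries had 156, 126, 217, 283, 52.2 and 54.6 normalized counts in batches 1 to 6. Batches 3, 4 and 6 were at least 2.05-fold above their vehicle library and batches 2 and 5 were below it, so the direction was not shared. Against vehicle the fitted log2 fold change was 0.69 (95% interval -0.02 to 1.40), and it did not pass (edgeR adjusted p = 0.708). Against IL-4 + IL-13, VCAM1 with TGF-β was lower in 5 of 6 batches, with a log2 difference of -1.24 (SE 0.334, interval -1.94 to -0.54) and an edgeR adjusted p of 0.0498. That call lies at the threshold: it was lost in 5 of 7 other fits of these libraries, and without any of batches 3 to 6 (adjusted p 0.127 to 0.3). It held with the vehicle libraries of batches 2 and 4 left out, at -1.22 (adjusted p 0.0314).

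With IL-6, VCAM1 had 152, 127, 84.8, 236, 68.2 and 39.5 normalized counts. Batches 4 and 6 stood 2.75-fold and 2.57-fold above vehicle, and the other batches stayed within 1.30-fold. Its log2 fold change was 0.41 (interval -0.30 to 1.12, edgeR adjusted p = 0.858). IL-4 + IL-13 exceeded IL-6 by 1.52 on the log2 scale (SE 0.339, interval 0.81 to 2.23), higher in 5 of 6 batches, which narrowly missed the threshold in edgeR (adjusted p = 0.0535) and passed in DESeq2 (adjusted p = 0.000753). TGF-β and IL-6 differed by 0.28 (interval -0.42 to 0.98).

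Markers of endothelium, the cell type in which VCAM1 is best known, were given beside this result. Their summed level (7 genes) was higher with IL-4 + IL-13 than with vehicle in 6 of 6 batches, at 2366 to 6234 normalized counts (median 3429) against 968 to 4474 (median 2294). With TGF-β the median was 1492 and with IL-6 it was 1981. KDR, a VEGF receptor, and CLDN5, a tight junction protein, supplied most of the sum. The defining markers PECAM1, CDH5, VWF and EMCN were low, with at most 45, 56, 29 and 21 raw counts in any library. PECAM1, CDH5 and EMCN were at 0 in some libraries. TEK ran from 0 to 226 raw counts. For scale, VCAM1 itself had 17 to 135 raw counts in vehicle. No gene of the list passed in any comparison with vehicle (1, 3 and 2 genes at an unadjusted p under 0.05 for IL-4 + IL-13, TGF-β and IL-6, and 0 by DESeq2), and the list medians were 0.13, -0.83 and -0.28 in that order. KDR was lower in the TGF-β libraries than in those given IL-4 + IL-13 (log2 difference -1.30, edgeR adjusted p = 0.0116). Whether the cultures held endothelial cells, and the part of such cells in the VCAM1 result, was not tested.

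Among the 9 genes, VCAM1 was the only one that passed in any of the 6 comparisons. With IL-4 + IL-13 against vehicle 1 of 9 passed, where 0.633% of all entries tested did. With TGF-β against IL-4 + IL-13 1 of 9 passed, beside 2.98% of all entries. The paper had already listed VCAM1 among the genes that differed after IL-4 + IL-13. The members were also chosen with earlier results of these data known. Setting 1 of 9 beside the share of all entries is therefore no separate support for the VCAM1 result. None of the 9 passed with TGF-β against vehicle (0.347% of entries), IL-6 against vehicle (0%), TGF-β against IL-6 (0.0783%) or IL-4 + IL-13 against IL-6 (0.456%). In these 4 comparisons 0, 0, 1 and 1 of the 9 had an unadjusted p under 0.05, and 0, 0, 0 and 1 passed in DESeq2. Over all entries, IL-6 against vehicle gave 0 calls in edgeR, 132 in DESeq2 and 1400 at an unadjusted p under 0.05. The median log2 fold change of the 9 was -0.11 with IL-4 + IL-13, -0.03 with TGF-β and -0.04 with IL-6, beside medians over all entries within 0.02 of 0.

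**Figure D2:**
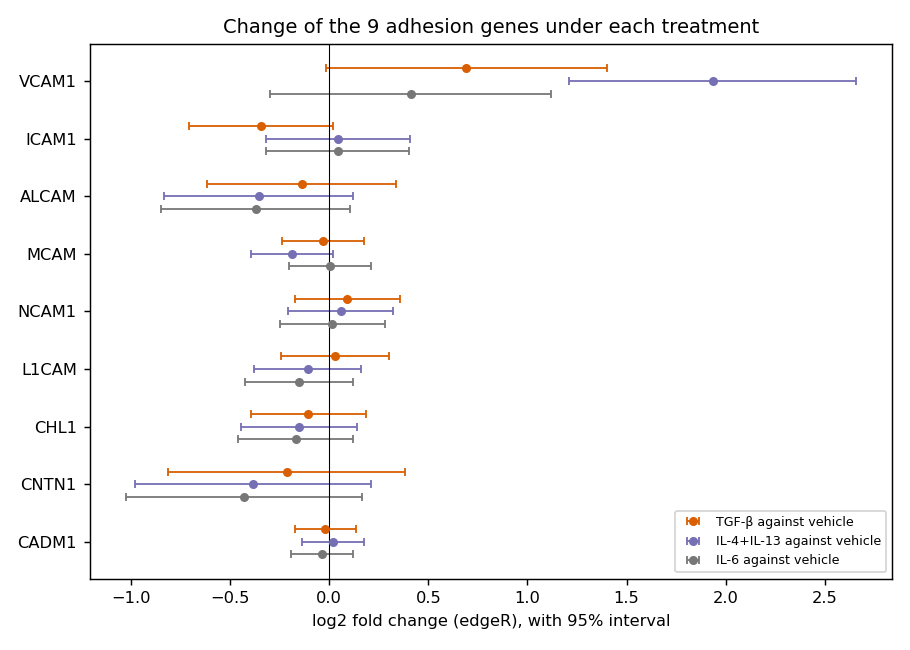
Log2 fold change of each of the 9 genes against vehicle (points, edgeR) with 95% intervals (bars), 1 color per treatment, over 6 batches. The VCAM1 interval under IL-4 + IL-13 (1.21 to 2.66) is the only one that excludes 0.

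ICAM1, the ligand of the β2 integrins, did not pass in any comparison and was set mainly by batch. The gene lies at chr19:10271120-10286615 and overlaps 2 annotated genes, LIMASI and ICAM4-AS1, with which reads could be shared because the strandedness of counting is not given. In vehicle, ICAM1 had 5043, 1159, 1118, 902, 1863 and 3207 normalized counts in batches 1 to 6. With IL-4 + IL-13 it had 3904, 860, 1228, 1608, 1702 and 3522, higher in 3 batches and lower in 3. Batch 1 was highest and batches 2, 3 and 4 lowest in each group, so the groups overlapped over nearly their whole range. The log2 fold change under IL-4 + IL-13 was 0.05 (interval -0.32 to 0.41, edgeR adjusted p = 0.969).

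TGF-β gave ICAM1 6100, 658, 637, 742, 1519 and 2634 normalized counts, lower than vehicle in 5 of 6 batches and higher in batch 1. The log2 fold change was -0.35 (SE 0.173, interval -0.71 to 0.02, edgeR adjusted p = 0.723), which did not pass. Against IL-4 + IL-13 it was -0.39 (interval -0.76 to -0.03, edgeR adjusted p = 0.353). Without batch 1 that difference was -0.63 and passed (adjusted p = 0.0313), so the 5 other batches and batch 1 went different ways. With IL-6, ICAM1 had 4401, 809, 1105, 1235, 2479 and 3477 normalized counts, at a log2 fold change of 0.04 (interval -0.32 to 0.40). VCAM1 and ICAM1, both leukocyte ligands, therefore had different outcomes under IL-4 + IL-13 in these libraries, with intervals that do not overlap, although the difference between the genes was not itself tested.

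ALCAM binds CD6 on T cells and itself on other cells, and it is used by growing axons. Its level (chr3:105366909-105576900) in vehicle was 3059, 5969, 9571, 4108, 4765 and 4026 normalized counts in batches 1 to 6. In batch 2 the vehicle library stood far above the 3 treated ones, which had 2102 with TGF-β, 1855 with IL-4 + IL-13 and 1970 with IL-6. Over all batches the treated libraries ranged from 1855 to 8369 and overlapped with vehicle throughout. The log2 fold change was -0.14 with TGF-β, -0.36 with IL-4 + IL-13 and -0.37 with IL-6, none of which passed (edgeR adjusted p 0.675 to 0.972). With the vehicle libraries of batches 2 and 4 left out, the 3 values were 0.05, -0.17 and -0.17, so the direction under TGF-β turned.

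MCAM, a receptor for laminin and other ligands on vessels, Schwann cells and neurons, had 4206, 4082, 4002, 3277, 2762 and 1550 normalized counts in vehicle. The gene (chr11:119308529-119317130) was low in batch 6 in every group, at 1652 with TGF-β, 1179 with IL-4 + IL-13 and 1617 with IL-6. IL-4 + IL-13 gave a log2 fold change of -0.19 (interval -0.40 to 0.02, edgeR adjusted p = 0.606), lower in 5 of 6 batches. Under TGF-β and IL-6 the values were -0.03 and 0.01, with intervals between -0.24 and 0.21.

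NCAM1 and L1CAM, the homophilic molecules that bundle axons, were the most abundant members per kb of annotated exon. NCAM1 (chr11:112961420-113278436) had 8221 normalized counts in the vehicle library of batch 1 and 32702, 40325, 35387, 29650 and 23199 in batches 2 to 6. Batch 1 was also lowest at 8602 with TGF-β, 15003 with IL-4 + IL-13 and 13725 with IL-6, and the 4 groups overlapped. The log2 fold change of NCAM1 was 0.09 with TGF-β, 0.06 with IL-4 + IL-13 and 0.02 with IL-6, with intervals between -0.25 and 0.36. NCAM1 with TGF-β was higher than vehicle in 5 of 6 batches, by at most 1.15-fold. With IL-4 + IL-13 it was lower in 5 of 6 batches and 1.82-fold higher in batch 1, and without batch 1 the log2 fold change was -0.10. With IL-6 it was lower in 4 of 6 batches.

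L1CAM (chrX:153861514-153886173) had 7432, 25329, 30826, 21660, 19249 and 14454 normalized counts in vehicle in batches 1 to 6. With TGF-β it had 6956, 14718, 34860, 30312, 24214 and 15801. Batch 1 was lowest and batch 3 highest in both groups, and in batch 2 vehicle again exceeded the treated libraries. For L1CAM the log2 fold change was 0.03 with TGF-β, -0.11 with IL-4 + IL-13 and -0.15 with IL-6, with intervals from -0.42 to 0.30, and none passed (edgeR adjusted p 0.852 to 0.993). Without the vehicle libraries of batches 2 and 4 the values were 0.16, 0.02 and -0.03.

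CHL1, the close homolog of L1CAM, had 3459 normalized counts in the vehicle library of batch 1 and 9253 to 11610 in the 5 others. The gene lies at chr3:196763-409417. With IL-4 + IL-13 its range was narrow, 6401 to 9035, because batch 1 was 1.87-fold above vehicle and the 5 other batches were below it. The log2 fold changes of -0.11 with TGF-β, -0.15 with IL-4 + IL-13 and -0.17 with IL-6 did not pass, and all 3 turned positive, to 0.08, 0.03 and 0.01, without the vehicle libraries of batches 2 and 4.

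CNTN1, a lipid-anchored contactin of axons and of the paranodal junction with myelinating glia, varied more between libraries than any other neural member, 12.7-fold from lowest to highest. The gene lies at chr12:40692439-41072415. In vehicle it had 1915, 14066, 18527, 10499, 9252 and 5420 normalized counts. In batch 2 the 3 treated libraries had 3702, 3796 and 3131, far below the vehicle value, whereas in batch 4 all 3 lay above vehicle (12114 to 19765). Fitted over all batches, the log2 fold changes were -0.22 with TGF-β, -0.38 with IL-4 + IL-13 and -0.43 with IL-6, with an interval as wide as -1.02 to 0.17 for IL-6. Without the vehicle libraries of batches 2 and 4 they were 0.11, -0.05 and -0.11.

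CADM1, a synaptic adhesion molecule that binds other nectin-like proteins, was the steadiest of the 9. Over the 24 libraries it ran from 5836 to 10409 normalized counts, a 1.78-fold span. Its log2 fold changes (chr11:115169236-115504415) were -0.02 with TGF-β, 0.02 with IL-4 + IL-13 and -0.04 with IL-6, with a standard error of 0.07 in each. The intervals lay between -0.19 and 0.18, so a change of 1.2-fold either way lies outside them. The genes NCAM1, L1CAM, CHL1 and CADM1 each overlap annotated antisense genes, whose reads cannot be told apart from theirs without strand.

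Compared per kb of exon, L1CAM and NCAM1 had the highest levels and VCAM1 the lowest. Each length is the union of all annotated exons, which can exceed the length of the transcript present. For MCAM it was 7422 bases of a gene spanning 8602. An error in a length is the same in every batch, so the SDs below do not include it. The median in vehicle was 2814 normalized counts per kb for L1CAM, 2456 for NCAM1, 1291 for CNTN1, 859 for CHL1, 769 for CADM1, 618 for ALCAM, 490 for MCAM, 438 for ICAM1 and 15.7 for VCAM1. L1CAM exceeded NCAM1, and NCAM1 exceeded CNTN1, in 6 of 6 vehicle libraries, by log2 differences of 0.32 ± 0.22 and 0.93 ± 0.42 (SD, n = 6). Before division by length, NCAM1 had more normalized counts than L1CAM in every vehicle library, so the order of these genes rests on the lengths used. CNTN1 and CHL1, CHL1 and CADM1, CADM1 and ALCAM, and MCAM and ICAM1 did not differ beyond their SD over batches. ICAM1 exceeded VCAM1 in all 6 vehicle libraries, by 5.31 ± 1.63 on the log2 scale (SD, n = 6). With IL-4 + IL-13 the VCAM1 median per kb was 42.3, which left it the lowest of the 9 in every group.

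**Figure D3:**
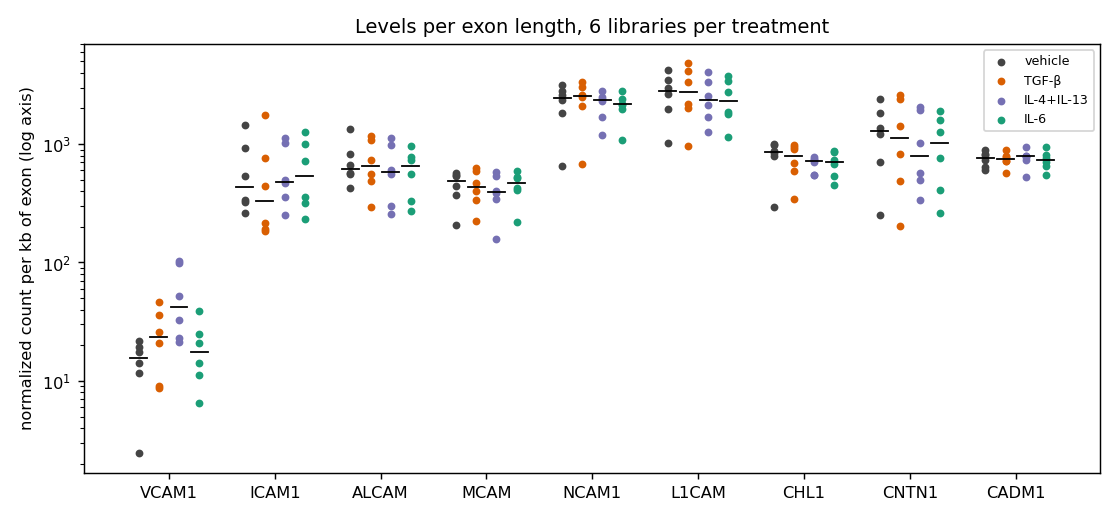
Normalized counts per kb of exon on a log axis for the 9 genes, with 6 libraries (points) and their median (line) in each treatment. VCAM1 lies below the other genes, with medians from 15.7 in vehicle to 42.3 with IL-4 + IL-13, and L1CAM and NCAM1 lie highest.

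The differentiation batch accounted for most of the variation in log2 level. Its share was 90.1% for ICAM1, 89.8% for MCAM, 91.0% for NCAM1, 90.6% for L1CAM, 85.9% for CNTN1, 77.7% for CHL1, 77.4% for CADM1 and 73.2% for ALCAM, above the median of 68.5% over genes. Treatment took 0.33% to 3.91% in these 8 genes, below the median of 5.18%. VCAM1 differed, with 43.8% for batch and 36.4% for treatment. Averaged over the 4 treatments, NCAM1, L1CAM and CNTN1 were lowest in batch 1 (11388, 7993 and 2014 normalized counts) and highest in batch 3 (38596, 30564 and 16546). CHL1 was also lowest in batch 1 (4784) and highest in batch 3 (10448), with batch 6 close behind (10202), whereas CADM1 was lowest in batch 2 (6543) and highest in batch 6 (10099). The summed neuron markers were lowest in batch 1 (62880) and highest in batch 3 (241865). ICAM1 was highest in batch 1 (4862), where summed mesenchymal (383728), endothelial (3972) and leukocyte markers (2076) were also highest. It was next highest in batch 6 (3210), which had the lowest mesenchymal sum (148763) and the second highest leukocyte sum (1509), and the part of cell composition in these levels was not tested.

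**Figure D4:**
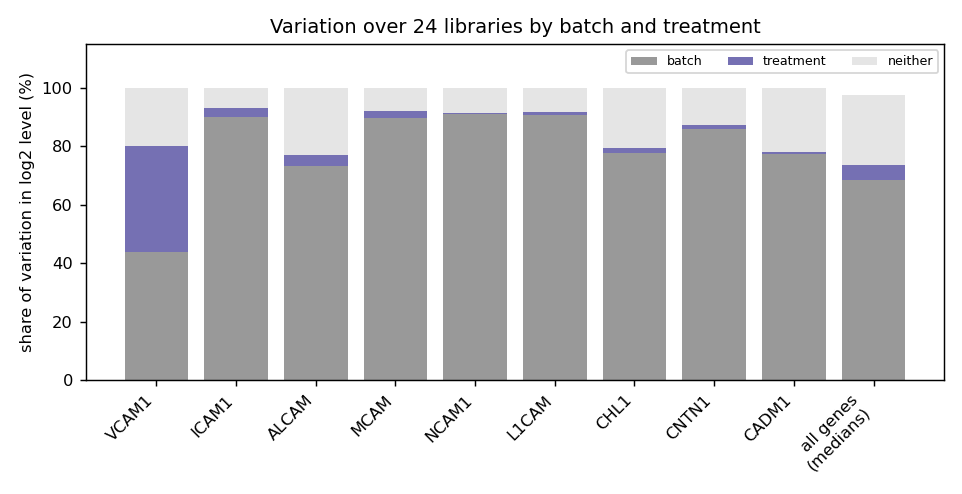
Share of the variation in log2 level (percent) over 24 libraries that goes with batch, with treatment and with neither, for each of the 9 genes and as medians over all genes, which need not add to 100. Treatment takes 36.4% for VCAM1 and at most 3.91% for the 8 other genes.

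The genes whose levels went most closely with VCAM1 were sought among 13292 genes, as Pearson's r of log2 levels after removing each batch's mean over the 24 libraries. These values are descriptions, since libraries of a treatment share its effect. Among the 10 closest, the first was FOXF2, a forkhead factor of mesenchyme (r = 0.90), followed by OLFML2A (0.86), AFMID (0.86), MFSD12 (0.84), ALPK2 (0.83), THBS1 (0.82), FOXQ1 (0.81), LRRFIP1 (0.805) and COL6A1 (0.804). Without the vehicle libraries of batches 2 and 4 the 10 values ran from 0.78 to 0.91. The 10 were picked on these same libraries with the treatment effect left in, so the next count is no separate support. Under IL-4 + IL-13 against vehicle 6 of the 10 passed, all higher, beside 0.633% of all entries tested. Among them were OLFML2A by 1.64, ALPK2 by 1.36, COL6A1 (a collagen VI chain) by 1.31, FOXQ1 by 0.67 and LRRFIP1 by 0.47 on the log2 scale (edgeR adjusted p 2.8e-05 to 0.0226). FOXF2 was at 0.58 and did not pass (adjusted p = 0.309).

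Among the 5 genes closest to ICAM1 were HEG1 (r = 0.96), CD46 (0.94), IL32 (0.93) and PALMD (0.93). HEG1 is a membrane protein of endothelium and mesothelium, and CD46 is a regulator of complement. None of these 5 passed against vehicle in any treatment (edgeR adjusted p 0.437 to 0.999), where at most 0.633% of all entries did. They were picked on these same libraries to follow ICAM1, which did not pass. The r between VCAM1 and ICAM1 themselves was 0.17.

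The integrins that bind VCAM1 and ICAM1 did not pass against vehicle. Of 9 such genes 8 could be tested, and 0 passed (1, 1 and 0 at an unadjusted p under 0.05 for TGF-β, then IL-4 + IL-13, then IL-6, and 0 by DESeq2). Their median log2 fold change was -0.16, -0.30 and -0.17 in that order. ITGA4, the α4 chain that pairs with β1 to bind VCAM1, had 85 to 812 raw counts. ITGB2, the β2 chain that binds ICAM1, had 0 to 8, and ITGAM 0 to 14. ITGB1, the β1 chain, was higher in the TGF-β library than in the IL-4 + IL-13 library in 6 of 6 batches, by 0.73 on the log2 scale (SE 0.15, edgeR adjusted p = 0.00795).

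Other leukocyte adhesion molecules did not pass against vehicle either, with 0 of 16 in each treatment. Over all entries 0.347%, 0.633% and 0% passed for TGF-β, then IL-4 + IL-13, then IL-6. Of the 16 genes 2, 2 and 0 had an unadjusted p under 0.05 in that order, and DESeq2 called 0. Their median log2 fold change was 0.07, 0.03 and -0.03. The endothelial selectin SELE had at most 21 raw counts in any library. SELP, another selectin of endothelium, had 0 counts in all vehicle and all IL-6 libraries, at most 3 with TGF-β and at most 15 with IL-4 + IL-13, where it was above 0 in 4 of 6 batches and did not pass against vehicle (edgeR adjusted p = 0.276). Per kb of exon, ICAM3 and ICAM5 had vehicle medians of 53.1 and 15.9 normalized counts beside 438 for ICAM1, and ICAM2 had at most 7 raw counts in any library. JAM3, a junctional molecule, exceeded its IL-4 + IL-13 level in the TGF-β libraries by 0.22 (edgeR adjusted p = 0.0483, 6 of 6 batches).

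Among other neural immunoglobulin adhesion molecules 35 of 36 were tested, and 0 passed in any of the 6 comparisons in edgeR. Over all entries 0% to 2.98% passed in these comparisons, so 0 of 35 is near that share. At an unadjusted p under 0.05 there were 4 with TGF-β, 2 with IL-4 + IL-13 and 4 with IL-6 against vehicle, and DESeq2 called 0 in each and NFASC alone for TGF-β against IL-4 + IL-13. The medians against vehicle were -0.03, -0.09 and -0.09. CNTN2, a contactin of sensory axons, was at 0.46 with TGF-β, higher in 6 of 6 batches, and did not pass (adjusted p = 0.793). DCC, a netrin receptor, was at 0.43 and THY1 at -0.34 with IL-4 + IL-13, neither of which passed. The partners and sheddases of the members include ADAM10 and ADAM17, which cut L1CAM and VCAM1 from the surface. Also among them are the sialyltransferases ST8SIA2 and ST8SIA4, which modify NCAM1. Of the 15 genes of this list 0 passed against vehicle, where 0% to 0.633% of all entries did (1, 0 and 0 at an unadjusted p under 0.05, 0 by DESeq2). Their medians were -0.02, -0.01 and -0.01.

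Among cytokine receptors and signaling regulators that act on VCAM1 and ICAM1, CISH and IL13RA2 rose under IL-4 + IL-13. Of 23 such genes 3 passed under IL-4 + IL-13 against vehicle, 2 higher and 1 lower, beside 0.633% of all entries. The paper had already reported higher IL13RA2 after this treatment, and the list was chosen with earlier results known. The count is therefore no separate support. With TGF-β 0 passed, beside 0.347% of all entries (3 at an unadjusted p under 0.05, and TGFBR2 alone by DESeq2). With IL-6 0 passed, beside 0% of all entries (2 unadjusted, 0 by DESeq2). CISH rose by 4.40 on the log2 scale (SE 0.384, edgeR adjusted p = 7.1e-06) and IL13RA2 by 1.31 (SE 0.174, adjusted p = 0.00077), each in 6 of 6 batches. The median of the list was -0.15 with IL-4 + IL-13, -0.02 with TGF-β and -0.07 with IL-6.

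Few markers of cell types passed against vehicle, as did few of all entries (0.347%, 0.633% and 0% for TGF-β, then IL-4 + IL-13, then IL-6). None of 8 neuron markers passed in any treatment (0 at an unadjusted p under 0.05 and 0 by DESeq2), with medians of -0.01, -0.08 and -0.04 for TGF-β, then IL-4 + IL-13, then IL-6. Of 7 glia markers 1 passed with TGF-β in edgeR and in DESeq2, and 0 passed with IL-4 + IL-13 or IL-6 (1 and 0 unadjusted, 0 by DESeq2). The glia medians were -0.06, -0.26 and -0.03 in the same order. Of 9 mesenchymal markers 0 passed (0, 2 and 0 unadjusted), and DESeq2 called COL1A1 alone, for IL-4 + IL-13. Their medians were -0.10, -0.21 and -0.01. Of 5 leukocyte markers tested 0 passed (1, 0 and 0 unadjusted, 0 by DESeq2), and of 4 cycling markers 0 passed (0, 2 and 2 unadjusted, 0 by DESeq2). The medians were 0.20, -0.18 and -0.02 for leukocyte markers and 0.55, 0.99 and 0.90 for cycling markers.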

How the data were processed

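Polyadenylated RNA of 24 cultures was sequenced. The authors deposited raw counts of reads for each gene, which their sequencing provider made by trimming adapters (Trimmomatic 0.30 in the submitters' processing notes), aligning to GRCh38.p14 and counting. The aligner, the counting tool and its strand setting are not given in the sources used here. No normalization had been applied. All 24 count columns were matched to labeled libraries by name.

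The members and gene lists were chosen with earlier results of these data known. Entries summing to fewer than 10 counts over the 24 libraries were not tested (29377 of 36468 were, and 13161 of the table are NewGene loci). Counts were tested with edgeR 4.0.16 in R 4.3.3 (TMM, robust quasi-likelihood F test, a model of treatment and batch on all 24 libraries, Benjamini-Hochberg adjustment, called at an adjusted p under 0.05). Standard errors were derived from the F statistic. DESeq2 1.42.0 with the same model was an alternative. Levels are counts divided by DESeq2 size factors (0.897 to 1.15), with 1 added before taking log2. Lengths per kb are exon unions of GENCODE transcripts on GRCh38.p14.

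The labels give each library its differentiation batch, which pairs the groups. Over 16900 genes, deviations from group means had a median correlation of 0.638 within a batch (36 pairs, lowest -0.06) and -0.171 between batches (240 pairs). Batches are separate differentiations of 1 line, so p-values measure the spread between these.

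The text names all 9 members, list genes that passed against vehicle, the extremes of each list, and the genes closest to VCAM1 (10) and to ICAM1 (5) with a mean count of at least 50. List genes that passed only between treatments, and levels of low genes, were named after their values were seen. Some genes that the rule names are not reported here. Alternatives were DESeq2, its size factors, stricter and looser filters, no batch term, first entries per symbol, the compared groups alone, each batch left out, and vehicle libraries left out. The edgeR code was tested on simulated data.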

Additional observations from a re-analysis of the deposited data

Results flagged for a closer look

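In 6 of 36 groups of 6 libraries (9 genes in 4 treatments), the highest or lowest library stood apart by Dixon's criterion, which chance alone meets in about 1 of 20 groups. The vehicle library of batch 6 was low for VCAM1, at 14.8 normalized counts, and without batch 6 the VCAM1 change under IL-4 + IL-13 was 1.77 with an edgeR adjusted p of 0.0754. Batch 1 was low for NCAM1 in the vehicle (8221), TGF-β (8602) and IL-6 (13725) groups, and the vehicle library of that batch was low for CHL1 (3459). The IL-6 library of batch 6 was low for MCAM, at 1617. The 4 values from batch 1 come from the batch with the lowest summed neuron markers, whose part in them was not tested.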

How the results depend on the processing

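VCAM1 kept its direction in each comparison under each alternative. Its call under IL-4 + IL-13 against vehicle also held with DESeq2, with DESeq2 size factors, with both other count filters, with first entries per symbol and without vehicle replicate 2. The causes of the differences below were not tested, except that fits of fewer libraries have fewer samples by construction.

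Without the replicate block, which ignores the pairing by batch, entries that passed fell from 102 to 0 (TGF-β against vehicle), 186 to 13 (IL-4 + IL-13 against vehicle), 874 to 51 (TGF-β against IL-4 + IL-13), 23 to 0 (TGF-β against IL-6) and 134 to 14 (IL-4 + IL-13 against IL-6). None of the 9 genes then passed (0 in both comparisons with a call), with VCAM1 at 1.94 against vehicle and -1.18 for TGF-β against IL-4 + IL-13. Signs turned for CNTN1 under TGF-β (0.0226), ICAM1 (-0.0491) and NCAM1 (-0.0417) under IL-4 + IL-13, and NCAM1 under IL-6 (-0.0788).

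With DESeq2 the passing entries numbered 504 (TGF-β against vehicle), 574 (IL-4 + IL-13 against vehicle), 132 (IL-6 against vehicle), 1572 (TGF-β against IL-4 + IL-13), 500 (TGF-β against IL-6) and 396 (IL-4 + IL-13 against IL-6), and 1 member, VCAM1 at 1.53, passed in the last. With only the libraries compared, they numbered 0, 27, 104 and 233 for TGF-β against vehicle, IL-4 + IL-13 against vehicle, TGF-β against IL-6 and IL-4 + IL-13 against IL-6, and 0 members passed, with VCAM1 at 1.91 against vehicle and -1.14 for TGF-β against IL-4 + IL-13. In that last comparison VCAM1 also missed the threshold with DESeq2 size factors (-1.24, adjusted p 0.0551), with no filter but a total above 0 (-1.25, adjusted p 0.0535) and with first entries per symbol (-1.24, adjusted p 0.0503), leaving 0 members in each. A filter of 1 CPM in 6 libraries gave 50 entries for TGF-β against IL-6, and 1 member, VCAM1 at 1.52, for IL-4 + IL-13 against IL-6. The loosest filter gave 14 entries for TGF-β against IL-6.

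Leaving out the vehicle libraries of batches 2 and 4, chosen after seeing the data, gave 1676 entries for TGF-β against IL-4 + IL-13, 236 for TGF-β against IL-6 and 250 for IL-4 + IL-13 against IL-6, with 1 member, VCAM1 at 1.5, in the last. Signs turned under TGF-β for ALCAM (0.051), CHL1 (0.0837), CNTN1 (0.109) and CADM1 (0.0307), under IL-4 + IL-13 for L1CAM (0.0237) and CHL1 (0.0282), and under IL-6 for MCAM (-0.0165), CHL1 (0.0105) and CADM1 (0.00764).

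Leaving out each replicate in turn, or the vehicle library of batch 2, gave 1 to 133 entries for TGF-β against vehicle, 76 to 234 for IL-4 + IL-13 against vehicle, 390 to 1443 for TGF-β against IL-4 + IL-13, 1 to 164 for TGF-β against IL-6 and 66 to 227 for IL-4 + IL-13 against IL-6. Members that passed numbered 0 to 1, 0 to 2 and 0 to 1 for IL-4 + IL-13 against vehicle, TGF-β against IL-4 + IL-13 and IL-4 + IL-13 against IL-6. VCAM1 ran from 1.77 to 2.21, -1.44 to -0.988 and 1.28 to 1.78 in these 3 comparisons. Small changes crossed 0 under TGF-β for MCAM (-0.121 to 0.0477), ALCAM (-0.311 to 0.188), CNTN1 (-0.421 to 0.216), CADM1 (-0.0756 to 0.0555) and L1CAM (-0.0494 to 0.199). Under IL-4 + IL-13 they did so for NCAM1 (-0.101 to 0.109), CADM1 (-0.0312 to 0.112), L1CAM (-0.194 to 0.0592), CNTN1 (-0.559 to 0.0551) and ICAM1 (-0.112 to 0.149). Under IL-6 they did so for NCAM1 (-0.123 to 0.0688), L1CAM (-0.216 to 0.0252), CNTN1 (-0.537 to 0.0103), CADM1 (-0.0664 to 0.0401), ICAM1 (-0.0351 to 0.157) and MCAM (-0.0621 to 0.0821), and for TGF-β against IL-4 + IL-13 for NCAM1 (-0.033 to 0.195) and CHL1 (-0.022 to 0.208).

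At 17 to 682 counts per library, VCAM1 has the largest counting error of the 9, most of all in the vehicle library of batch 6.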

Other observations

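Cycling markers (MKI67, TOP2A, CDK1 and CCNB1) summed to 11413, 15617 and 13603 normalized counts in the batch 2 libraries given TGF-β, given IL-4 + IL-13 and given IL-6, in that order, and to 2095 in the batch 2 vehicle library. In the other batches the sum ran no higher than 4691. These are the same treated libraries in which CNTN1 and ALCAM lay far below the vehicle library.

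L1CAM and CNTN1 went together over the 24 libraries after each batch's mean was removed (r = 0.94), also without the vehicle libraries of batches 2 and 4 (0.88). ALCAM and CNTN1 did so with those libraries (0.78) and not without them (0.11). NCAM1 and CHL1 gave 0.81 and 0.89. These are descriptions over libraries that share batches and treatments.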
